A study of Mus musculus with 2 samples.

Results

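The genes of cholesterol synthesis, storage, efflux and sterol sensing were examined in 2 total RNA-seq libraries of mouse bone marrow cells labelled as megakaryocyte progenitors (CFU-Meg, the colony-forming precursor of the platelet-producing megakaryocyte). The 30 members were chosen by symbol from the known pathway and by no rule on their values, though earlier results of these data were known. All 30 were found among 43346 Ensembl genes. They fall into 8 genes of the mevalonate and isoprenoid steps, 11 of the squalene and sterol steps, 5 of sterol sensing and 6 of transport, efflux and esterification. No lipoprotein receptor is among them, so uptake is described from a separate list. Both libraries are primary cells, with no treatment named, of male C57BL/6J mice aged 5 to 6 weeks, and each was made from 1 ng of RNA. They carry biological replicate numbers 1 and 2 but share a donor identifier, and whether they stem from different animals is not stated. The labels give 1 group and no contrast. The comparisons are therefore among genes, and between replicate 1 and replicate 2.

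Cells build cholesterol from acetyl-CoA. The mevalonate steps make isoprenoid units, which either leave the pathway to be attached to proteins or are joined into squalene, and the sterol steps close squalene into lanosterol and trim it to cholesterol. When membrane sterol is low, SCAP carries the SREBP transcription factors from the endoplasmic reticulum to the Golgi, where proteases release the part that enters the nucleus, and INSIG proteins hold SCAP back when sterol is high. The LXR nuclear receptors sense oxysterols and turn on efflux. In mice, cholesterol efflux pumps are known to restrain the proliferation of blood progenitors, megakaryocyte progenitors included.

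The libraries held 82746658 expected counts in replicate 1 and 75652762 in replicate 2, and 50.3% and 49.8% of them lay in spike-in, numeric, small RNA and mitochondrial rows and in Gm42418. The members took 38721 and 36077 expected counts. The label was checked against marker genes. Of 11 megakaryocyte markers, 2 (Itga2b and Vwf) reached 1 TPM in both libraries, and the list summed to 11.2 TPM (replicate 1) and 6.80 TPM (replicate 2), with the collagen receptor gene Gp6 and the platelet tubulin gene Tubb1 at 0 in both. The 6 granulocyte markers summed to 15547 and 16061 TPM, the 6 monocyte and macrophage markers to 2814 and 3184 TPM, and the 5 erythroid markers to 528 and 253 TPM. Single genes carried most of the last 2 sums. Ly6c2 had 2767 and 3120 TPM. Ccr2 had 31.1 and 42.3 TPM and Csf1r 14.4 and 19.1 TPM, while the macrophage genes Adgre1, C1qa and C1qb had at most 2.34 TPM. Car1 had 512 and 242 TPM, while the other erythroid markers had at most 9.28 TPM. The marker levels thus go against the label, and the values below are those of the libraries labelled CFU-Meg. In bulk RNA, fewer cells of a type and less RNA per cell cannot be told apart. What part other cells had in the levels of the members was not tested.

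A level of 1 TPM or more in each library was reached by 27 of 30 members, against 46.2% of 21474 protein-coding genes and 25.6% of all Ensembl genes. TPM, the deposited relative transcript abundance, is corrected for transcript length, so genes can be compared on it. The median member stood at 7.19 TPM (7.61 in replicate 1 and 6.79 in replicate 2), against 11.6 TPM for the 9924 protein-coding genes that reached 1 TPM in both. Most members were thus present at modest levels: 20 lay between 1 and 10 TPM, 7 at 10 TPM or more and 3 under 1 TPM. The 5 members above the median of the expressed protein-coding genes were Fdps, Soat1, Ebp, Nr1h2 and Idi1. In the order of mean levels, 10 of 29 neighbouring pairs had libraries that did not overlap. Fdps and Soat1 at the top could not be ordered, whereas both lay above Ebp in both libraries.

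**Figure D1:**
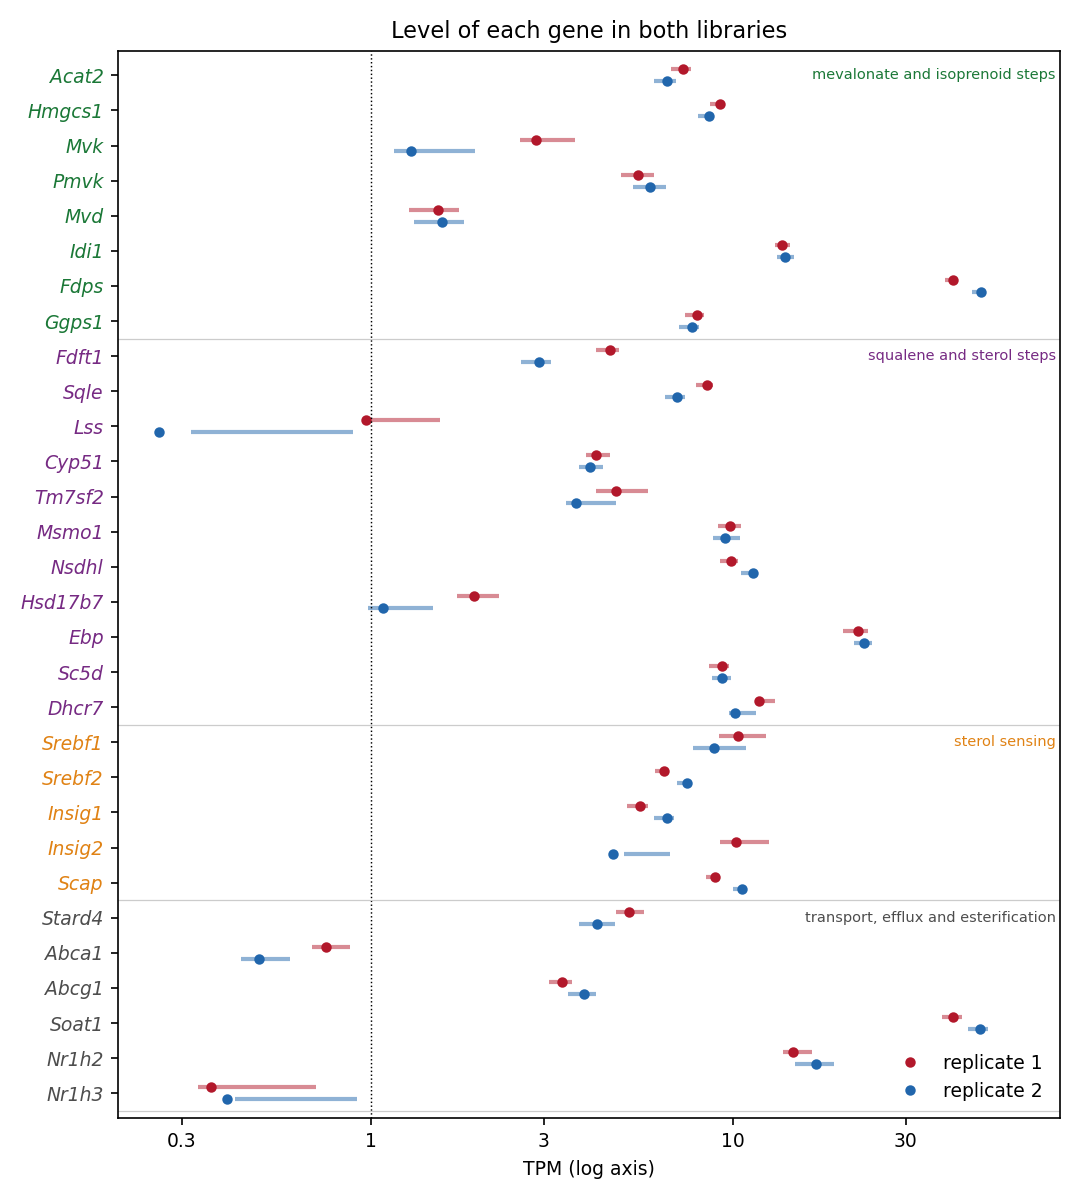
TPM of each member on a log axis, in pathway order from top to bottom; points are the authors' TPM in replicate 1 (red) and replicate 2 (blue), bars are the deposited credibility intervals of the posterior mean, and the dotted line marks 1 TPM. The points of Lss, Abca1 and Nr1h3 lie under 1 TPM in both libraries, and those of Fdps and Soat1 lie between 40.57 and 48.40 TPM.

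All 8 genes of the mevalonate and isoprenoid steps reached 1 TPM in each library, and their median level was 7.37 TPM. Acat2, the cytosolic thiolase that joins acetyl-CoA units, stood at 7.26 TPM in replicate 1 and 6.58 in replicate 2. Hmgcs1, which makes HMG-CoA, stood at 9.19 and 8.58 TPM. Neither entry enzyme differed much between the libraries. The kinases were lower: Mvk, which phosphorylates mevalonate, had 2.86 and 1.29 TPM, and Pmvk, which adds the next phosphate, had 5.46 and 5.88 TPM. Mvd, the decarboxylase that makes isopentenyl diphosphate, had 1.53 and 1.57 TPM and was the lowest of this group by mean level. After that step the levels were higher. Idi1, the isomerase of isopentenyl diphosphate, had 13.65 and 13.88 TPM. Fdps, which makes farnesyl diphosphate at the branch to isoprenoids and sterols, had 40.57 and 48.40 TPM, the highest mean of all members (44.5 ± 5.5 TPM, SD, n = 2; ENSMUSG00000059743.8, GRCm38 chromosome 3, 89093588 to 89101959). Ggps1, which extends farnesyl to geranylgeranyl diphosphate, had 7.96 and 7.69 TPM. Mvd and Fdps, at the ends of this range, are separated in the pathway by Idi1. The counts of Acat2, Idi1 and Fdps were not whole numbers, so some of their reads were divided with other features, and most of Fdps (7512 bases) is overlapped on its own strand by the protein-coding Gm43738, for which no value is used here. Mvd lies wholly within Gm20388 on the opposite strand (7.63 and 7.49 TPM), from which it cannot be told apart if strand was not used.

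Of the 11 squalene and sterol genes, 10 reached 1 TPM in both libraries and the median was 7.73 TPM. Fdft1, squalene synthase, had 4.56 TPM in replicate 1 and 2.91 in replicate 2. Sqle, the epoxidase that oxidises squalene, had 8.46 and 7.0 TPM. Lss, the cyclase that closes the ring to lanosterol, had 0.97 and 0.26 TPM (294 and 93 expected counts). The cyclase was the lowest enzyme of the pathway in both libraries, between an epoxidase and a demethylase of higher level. Cyp51, the lanosterol demethylase, had 4.18 and 4.03 TPM, and Tm7sf2, a sterol C14 reductase, had 4.76 and 3.68 TPM. The enzymes that remove the C4 methyl groups were uneven. Msmo1, the C4 methyl oxidase, had 9.79 and 9.49 TPM, Nsdhl, the decarboxylating dehydrogenase, had 9.89 and 11.33 TPM, and Hsd17b7, the 3-keto reductase, had 1.92 and 1.08 TPM. The late enzymes were higher than Hsd17b7 in both libraries. Ebp, the sterol isomerase, had 22.10 and 22.98 TPM. Sc5d, the C5 desaturase, had 9.33 TPM in both, and Dhcr7, the 7-dehydrocholesterol reductase, had 11.80 and 10.12 TPM. Ctsb overlaps Fdft1 by 774 bases on the opposite strand at 37.28 and 38.92 TPM, and Tm7sf2 shares 532 bases with Vps51 on its own strand (11.80 and 12.97 TPM).

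The 250 bases before and 50 after each RefSeq transcription start (build GRCm38.p6) were searched on both strands for the letters CCAAT, the box of the factor NF-Y, which is known to act with SREBPs, for the sterol regulatory element (SRE) TCACNCCAC, and for the GC box GGGCGG. Windows were at hand for 25 members; Fdps, Fdft1, Sqle, Stard4 and Abcg1 were not searched. CCAAT was found in 20 of 25 members, against 41.1% of 27025 genes in the RefSeq table and 43.9% of protein-coding genes that reached 1 TPM in both libraries. Among synthesis enzymes it was found in 15 of 16 (all but Acat2), and among the other members in 5 of 9. A window with 2 or more CCAAT boxes occurred in 11 of 25 members, against 13.3% of all genes and 17.7% of the expressed protein-coding genes. A window with 3 or more occurred in 7 of 25 members, against 3.88% of all genes. The share with 3 or more among the expressed protein-coding genes was not computed. The members were not chosen on sequence, but no test was made and a match of letters is not a bound site. The GC box was found in 21 of 25 members, against 38.2% of all genes and 69.8% of the expressed protein-coding genes. The exact SRE letters were found in Hmgcs1 alone, against 1.44% of all genes and 1.34% of the expressed protein-coding genes, and with 1 mismatch allowed in 11 members, against 26.7%. TCACGTGA, an E-box form bound by SREBPs, was found in no member (1.12% of all genes and 2.39% of the expressed ones). The exact letters of the LXR element, a repeat of AGGTCA after a gap of 4 bases, were also found in none. They occurred in only 0.0148% of all genes and in 0 of 7962 expressed protein-coding genes, and no mismatch was allowed. A search this strict cannot show that a member lacks an LXR site. The promoters of 3 synthesis genes are shown up to the base before the start, 5′ to 3′ on the gene's strand. Capitals mark the SRE and CCAAT, and a box on the other strand reads ATTGG. Hmgcs1 shows the SRE between CCAAT boxes, Mvk the most CCAAT boxes of the 3 (5 in this stretch), and Mvd 2 boxes close to the start.
Hmgcs1 promoter, chr13:119690146-119690350, plus strand: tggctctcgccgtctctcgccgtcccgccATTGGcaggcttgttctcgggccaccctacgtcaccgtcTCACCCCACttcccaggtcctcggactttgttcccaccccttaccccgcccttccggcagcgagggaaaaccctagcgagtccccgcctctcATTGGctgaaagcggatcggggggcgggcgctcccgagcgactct
Mvk promoter, chr5:114444064-114444268, plus strand: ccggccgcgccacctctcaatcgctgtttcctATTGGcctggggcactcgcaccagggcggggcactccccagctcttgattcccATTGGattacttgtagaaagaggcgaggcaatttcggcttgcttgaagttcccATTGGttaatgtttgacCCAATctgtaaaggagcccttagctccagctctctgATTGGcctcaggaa
Mvd promoter, chr8:122443423-122443627, minus strand: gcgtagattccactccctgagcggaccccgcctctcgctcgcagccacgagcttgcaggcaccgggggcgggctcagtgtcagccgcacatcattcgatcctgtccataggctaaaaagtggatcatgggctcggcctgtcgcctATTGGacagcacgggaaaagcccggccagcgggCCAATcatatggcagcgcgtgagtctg
These 3 genes differed in level, with Hmgcs1 at 8.89 ± 0.43 TPM, Mvk at 2.08 ± 1.11 TPM and Mvd at 1.55 ± 0.03 TPM (SD, n = 2 each), and all 3 had CCAAT near the start.

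**Figure D2:**
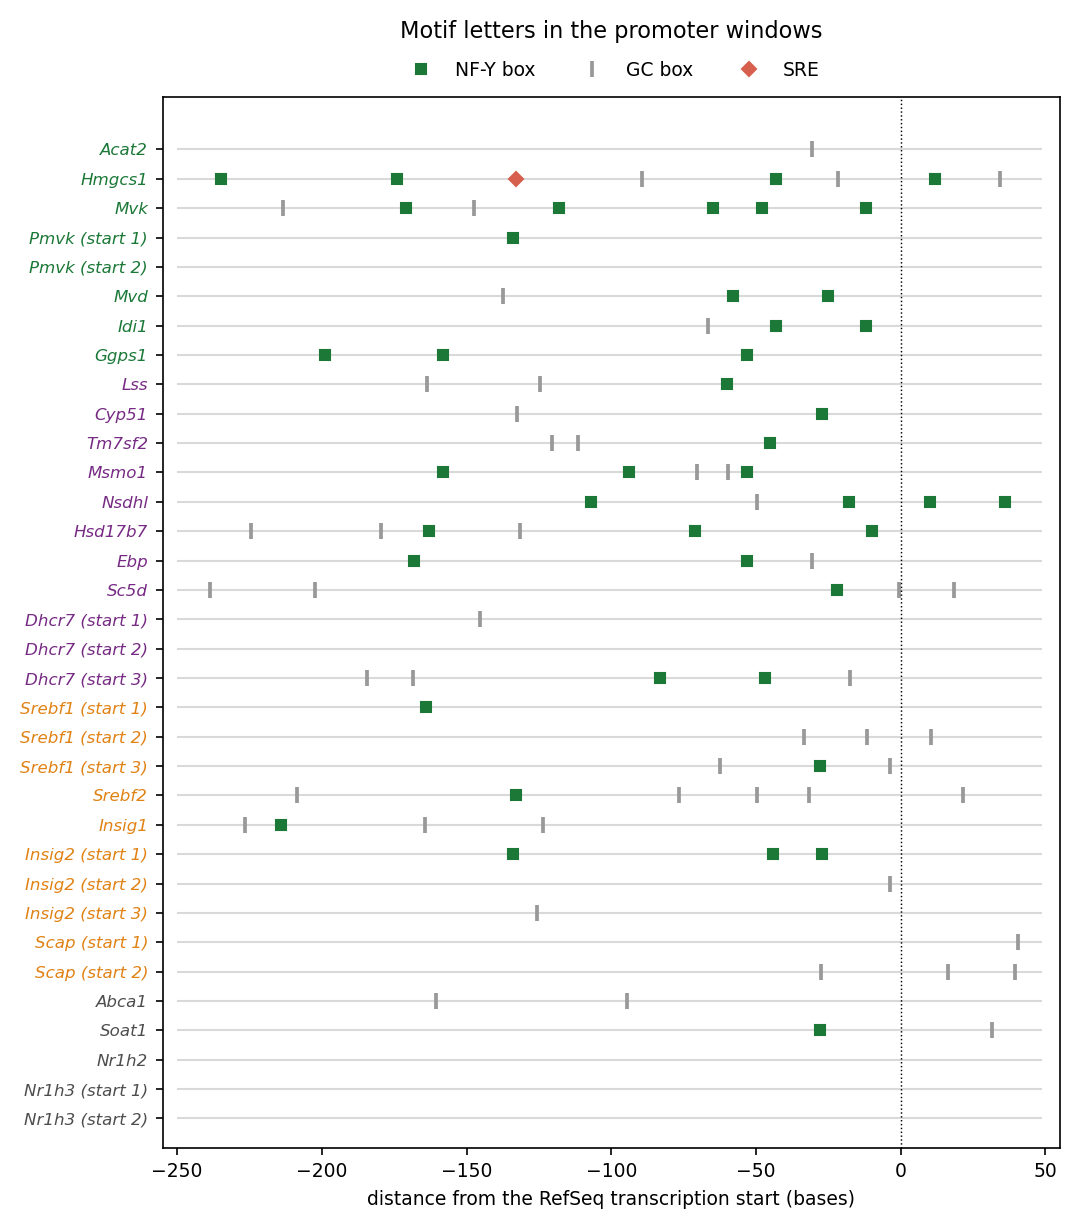
Position of CCAAT (NF-Y box, squares), GGGCGG (GC box, bars) and TCACNCCAC (SRE, diamond) on either strand in each RefSeq promoter window, as distance in bases from the transcription start; genes with several annotated starts have a line for each, numbered from upstream to downstream. CCAAT stands in 15 of 16 synthesis enzymes (green and purple names), and the single SRE is that of Hmgcs1.

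All 5 sensing genes reached 1 TPM in both libraries, at means between 6.06 and 9.74 TPM, the narrowest range of the groups. Srebf2, whose product SREBP-2 drives the synthesis genes, had 6.46 TPM in replicate 1 and 7.45 in replicate 2. Srebf1, which encodes SREBP-1 and favours fatty acid genes, had 10.30 and 8.88 TPM. Scap, the sterol-sensing escort, had 8.91 and 10.56 TPM. The escort thus lay above Srebf2 in both libraries. Insig1, an anchor of SCAP that is itself an SREBP target, had 5.55 and 6.56 TPM, and Insig2, the second anchor, had 10.18 and 4.67 TPM. For Insig2, TPM and reads parted ways. Its TPM was 2.18 times as high in replicate 1 as in replicate 2, while its normalized counts, 851 and 708, differed by a log2 ratio of 0.27. A retained-intron transcript of 334 bases (Insig2-206) was given 48.2 expected counts and 3.97 TPM in replicate 1 and 0 in replicate 2, and the protein-coding Insig2-201 had 5.18 and 4.52 TPM.

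The starts of Srebf1 were then separated, because SREBP-1a and SREBP-1c are made from different first exons and SREBP-1a is known as the stronger activator. The transcript from the SREBP-1a start (Srebf1-201) had 4.39 TPM in replicate 1 and 4.66 in replicate 2 (1136 and 1119 expected counts). The 2 transcripts from the SREBP-1c start together had 0.06 and 0 TPM (11.97 and 0 expected counts). Nearly all coding RNA of Srebf1 was assigned to the SREBP-1a start in both libraries. This division is an estimate, since reads in shared exons do not tell the starts apart. The annotated coding transcript of the SREBP-1c start (Srebf1-207) is also shorter, at 3177 bases against 4299 for Srebf1-201. A non-coding transcript of 367 bases from a start further upstream (Srebf1-204) had 2.85 and 1.19 TPM, from only 40.49 and 15.93 expected counts. The 8 transcripts with internal starts summed to 2.99 and 3.02 TPM. The internal starts rest on 99.6 and 97.0 expected counts, which are estimates where exons are shared. The promoters of both starts are shown so that they can be compared, with capitals marking CCAAT and the GC box, which reads CCGCCC where it lies on the other strand.
Srebf1 SREBP-1a promoter, chr11:60220628-60220832, minus strand: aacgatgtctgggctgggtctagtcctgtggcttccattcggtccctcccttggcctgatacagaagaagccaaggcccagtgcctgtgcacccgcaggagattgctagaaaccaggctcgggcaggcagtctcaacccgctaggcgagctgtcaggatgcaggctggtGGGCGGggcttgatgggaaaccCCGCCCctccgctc
Srebf1 SREBP-1c promoter, chr11:60210472-60210676, minus strand: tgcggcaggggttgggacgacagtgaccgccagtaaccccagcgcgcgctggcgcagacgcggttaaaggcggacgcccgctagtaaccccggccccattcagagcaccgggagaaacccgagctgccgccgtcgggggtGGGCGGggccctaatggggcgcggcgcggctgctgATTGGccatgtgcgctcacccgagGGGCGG
The SREBP-1a stretch holds 2 GC boxes and no CCAAT, and the SREBP-1c stretch holds 2 GC boxes and 1 CCAAT on the other strand, 26 to 30 bases before the start.

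The 6 genes of transport, efflux and esterification ranged most widely, from 0.38 to 44.4 TPM, and 4 reached 1 TPM in both libraries. Soat1, the enzyme that esterifies cholesterol for storage in droplets, had 40.62 TPM in replicate 1 and 48.12 in replicate 2 (44.4 ± 5.3 TPM, SD, n = 2; ENSMUSG00000026600.8, chromosome 1, 156424525 to 156474331). Stard4, a soluble sterol carrier, had 5.16 and 4.2 TPM. The storage enzyme stood above the carrier in both libraries. Of the efflux pumps, Abcg1, which loads HDL, had 3.37 and 3.87 TPM, and Abca1, which loads lipid-poor apolipoprotein, had 0.75 and 0.49 TPM. Abcg1 was higher than Abca1 in both libraries. Of the LXR receptors, the widely expressed Nr1h2 (LXR beta) had 14.61 and 17 TPM, and Nr1h3 (LXR alpha) had 0.36 and 0.40 TPM (37 and 42 expected counts). LXR transcripts were thus mostly of the beta gene in both libraries. The promoter of Abca1, an LXR target, is shown as a stretch with 2 GC boxes and neither CCAAT nor the SRE, so that no letter is in capitals. It does not stand for the members outside synthesis, since CCAAT was found in 5 of 9 of them, Soat1 included. The exact SRE letters were also absent from every synthesis enzyme searched except Hmgcs1. Inexact LXR sites were not searched for or marked.
Abca1 promoter, chr4:53159896-53160100, minus strand: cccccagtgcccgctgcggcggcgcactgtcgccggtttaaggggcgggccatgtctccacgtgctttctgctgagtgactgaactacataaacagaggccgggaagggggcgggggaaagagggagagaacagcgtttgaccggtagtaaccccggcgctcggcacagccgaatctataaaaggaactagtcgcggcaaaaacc

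Replicate 1 was set against replicate 2 over 14304 genes with an exact two-sided binomial test of rounded counts. A gene was called where the Benjamini-Hochberg adjusted p lay under 0.05 and the log2 ratio reached 1 in either direction. It compares these libraries and no conditions. Of 30 members, all of which passed the filter on low counts, 1 was called, against 7.66% of genes tested (5.04% higher in replicate 1 and 2.62% higher in replicate 2). That gene was Lss, with 280 normalized counts in replicate 1 and 98.1 in replicate 2 (log2 ratio 1.49, exact binomial test, adjusted p = 5.82e-20). Mvk lay just under the fold threshold, with 223 and 112 normalized counts (log2 ratio 0.99), and was called when libraries were scaled by total counts. The median log2 ratio of the members was -0.0005, so near 0 that its sign turned when libraries were scaled by total counts, and 15 members were higher in replicate 1 and 15 in replicate 2. For 25 of 30 members the log2 ratio was smaller than 0.5 in either direction. Among the 20 members at 1 to 10 TPM, the median absolute log2 ratio was 0.15, against 0.25 for 5716 genes of that level, and among the 7 members at 10 to 100 TPM it was 0.25, against 0.13 for 5102 genes. By these medians, the moderately expressed members were closer between the libraries than other genes of their level and the highly expressed members were further apart, which was not tested. By normalized counts, replicate 1 was higher in 4 of 8 mevalonate and isoprenoid genes, 7 of 11 squalene and sterol genes, 1 of 5 sensing genes and 3 of 6 genes of transport, efflux and esterification, against 7148 of 14304 genes tested. By TPM, Srebf1 and Msmo1 were instead higher in replicate 1, Nr1h2 was higher in replicate 2 and Sc5d was equal, and with total counts Idi1 turned. Fdft1, Hsd17b7 and Abca1 had log2 ratios of 0.61, 0.54 and 0.57. The summed erythroid markers, mostly Car1, were also higher in replicate 1 (528 TPM in replicate 1 and 253 in replicate 2), and their part in the difference of Lss was not tested.

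**Figure D3:**
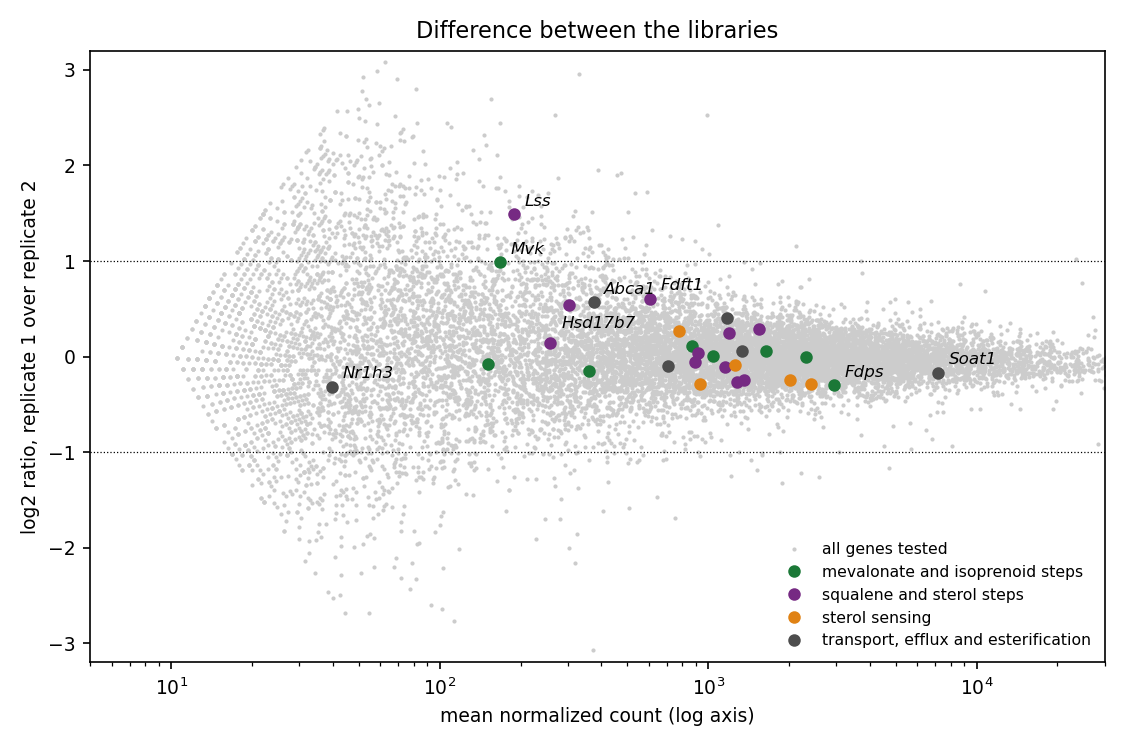
Log2 ratio of replicate 1 over replicate 2 against the mean normalized count (log axis) for all 14304 genes tested (grey) and the members, coloured by group; dotted lines mark a log2 ratio of 1 in either direction, and the most extreme genes are outside the axes. Lss at 1.49 is the only member past a line, and Mvk at 0.99 lies just under it.

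Most members were assigned to protein-coding transcripts. Over the 27 members that reached 1 TPM in both libraries, the median share of TPM in protein-coding transcripts was 98.2%, against 97.7% for the protein-coding genes that did so. A transcript that is not protein-coding led in both libraries in 1 of these 27 members, against 8.89% of such genes, and the same single member lay under 50% coding in both, against 9.58%. That member was Ebp (ENSMUSG00000031168.10, chromosome X, 8185329 to 8193512). Its retained-intron transcript Ebp-202 took 72.85% of its TPM in replicate 1 and 78.18% in replicate 2, so that the coding transcripts held 6.00 and 5.01 TPM. On coding transcripts alone, Ebp lay just under the median of the members on that measure (5.59 TPM). Msmo1 was divided between the processed transcript Msmo1-206 (58.95% and 44.07%) and the coding Msmo1-201 (38.01% and 50.15%), and the leader differed between the libraries. Srebf1 held 43.2% and 52.5% of its TPM in coding transcripts.

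Lss was the other gene with little coding RNA. Its coding transcript Lss-201 was given 0.39 TPM in replicate 1 and 0 in replicate 2 (109.66 and 0 expected counts). The retained-intron Lss-204 had 0.22 and 0.21 TPM. This division depended on the estimate. By TPM, Lss-201 took 40.10% and 0% of the gene and Lss-204 22.39% and 81.65%. By posterior mean, Lss-201 took 29.98% and 4.26% and Lss-204 17.41% and 31.54%. In expected counts, Lss-204 had 92.7 and 82.6, whereas the retained-intron transcripts Lss-206 (65.9 and 10.4) and Lss-207 (25.8 and 0) were, like the coding transcript, higher in replicate 1. Soat1 was spread over several transcripts and led in both libraries by the coding Soat1-201 (34.08% in replicate 1 and 35.70% in replicate 2). The coding Soat1-204 took 22.57% and 20.14%, the long coding Soat1-207 (8371 bases) 19.33% and 15.94%, and the retained-intron Soat1-203 15.09% and 21.68%, so that the order below the leader differed between the libraries. Nr1h2 was led by Nr1h2-203 in replicate 1 (45.58%, against 20.88% in replicate 2) and by Nr1h2-204 in replicate 2 (35.39% in replicate 1 and 44.28% in replicate 2), both coding, and its coding TPM was 12.78 in each library. Mvk-201 (58.01% and 67.36%), Hsd17b7-201 (59.57% and 77.47%) and Stard4-201 (87.36% and 77.15%) led their genes in both. Of the 19 members at 1 TPM or more with several transcripts, 16 had the same leader in both libraries, against 85.7% of such genes.

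**Figure D4:**
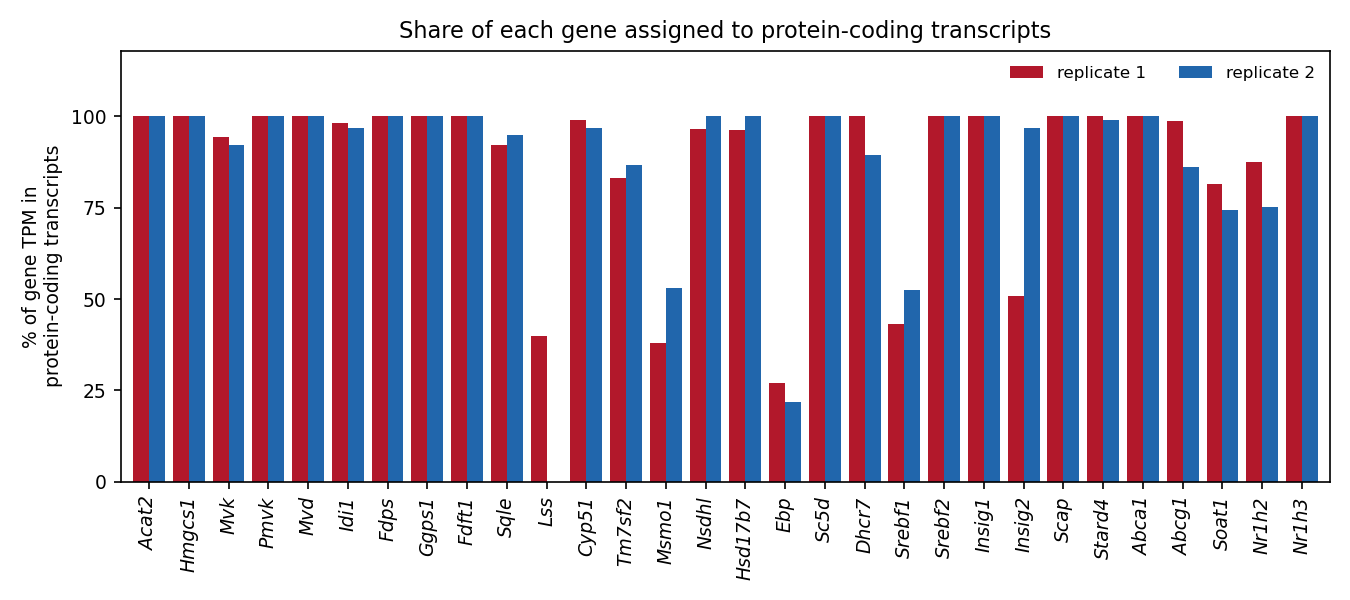
Percent of each member's TPM assigned to transcripts annotated as protein-coding, in replicate 1 (red) and replicate 2 (blue). Ebp lies at 27.1% and 21.8%, Lss at 39.8% and 0%, and Msmo1, Srebf1 and, in replicate 1, Insig2 also lie well under the others.

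The 5 lists of related genes place the members in the wider pathway. All 9 genes of SREBP release and sterol-regulated degradation reached 1 TPM in each library (median 13.6 TPM). The highest were the segregase gene Vcp (63.01 TPM in replicate 1 and 52.32 in replicate 2) and Erlin1, which binds the degradation complex (31.43 and 31.41), and the lowest were its partner Erlin2 (9.49 and 10.82) and the SREBP protease gene Mbtps1 (10.26 and 10.35). All 13 genes of isoprenoid use also reached 1 TPM (median 12.1 TPM). Among these, Rabggtb, a subunit of Rab prenyltransferase, was highest (49.47 and 46.20), followed by the CAAX protease gene Zmpste24 (29.51 and 27.89). Rabggta, the partner subunit of Rabggtb, was lowest (3.53 and 4.06), next to the methyltransferase gene Icmt (4.99 and 3.26). The medians of both lists lay above that of the members.

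Of 12 genes of lipoprotein uptake and lysosomal sterol export, 11 reached 1 TPM in each library (median 6.97 TPM). Npc2, which hands lysosomal cholesterol on, was highest (40.16 TPM in replicate 1 and 46.06 in replicate 2), then the HDL receptor gene Scarb1 (24.17 and 25.15). The lowest were the lipoprotein receptor genes Vldlr (0.28 and 0.12) and Lrp1 (4.02 and 4.18). An HDL receptor thus stood well above the VLDL receptor in both libraries.

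Of 12 genes of LXR partners, oxysterol enzymes and ester turnover, 6 reached 1 TPM in both, and the median of 1.45 TPM was the lowest of the 5 lists. Lpcat3, which remodels phospholipids (17.84 and 15.99), and the LXR partner Rxrb (8.55 and 8.53) were highest, and Rxrg (0 in both) and the brain oxysterol enzyme gene Cyp46a1 (0.04 and 0) were lowest. A count of 0 for Rxrg allows a level of up to 0.0282 and 0.0303 TPM at 3 reads. Cyp27a1, which makes 27-hydroxycholesterol, was called lower in replicate 1 (70.4 normalized counts in replicate 1 and 196 in replicate 2, log2 ratio -1.45, exact binomial test, adjusted p = 4.11e-14), and Soat2, the other sterol acyltransferase gene, was called higher (96.0 and 43.2, log2 ratio 1.12). Soat2 stayed under 1 TPM in both (0.78 and 0.34), far below Soat1. Abcg4, an efflux pump known in mice for restraining megakaryocyte progenitors and named here after its values were seen, had 3.05 and 1.64 TPM.

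Of 13 fatty acid genes driven by SREBP-1, 11 reached 1 TPM in each library (median 6.53 TPM). Elovl5, an elongase gene (43.92 TPM in replicate 1 and 40.29 in replicate 2), and the desaturase gene Scd2 (41.50 and 39.19) were highest, and the malic enzyme gene Me1 (0.12 and 0.06) and Scd1 (0.20 and 0.09) were lowest. Scd2 thus stood far above Scd1 in both libraries. Acss2, which makes acetyl-CoA from acetate, and Scd1 were called higher in replicate 1 (log2 ratios 1.06 and 1.01). Across this list 11 of 13 genes were higher in replicate 1, whereas the members were evenly divided, and this difference between lists was not tested.

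**Figure D5:**
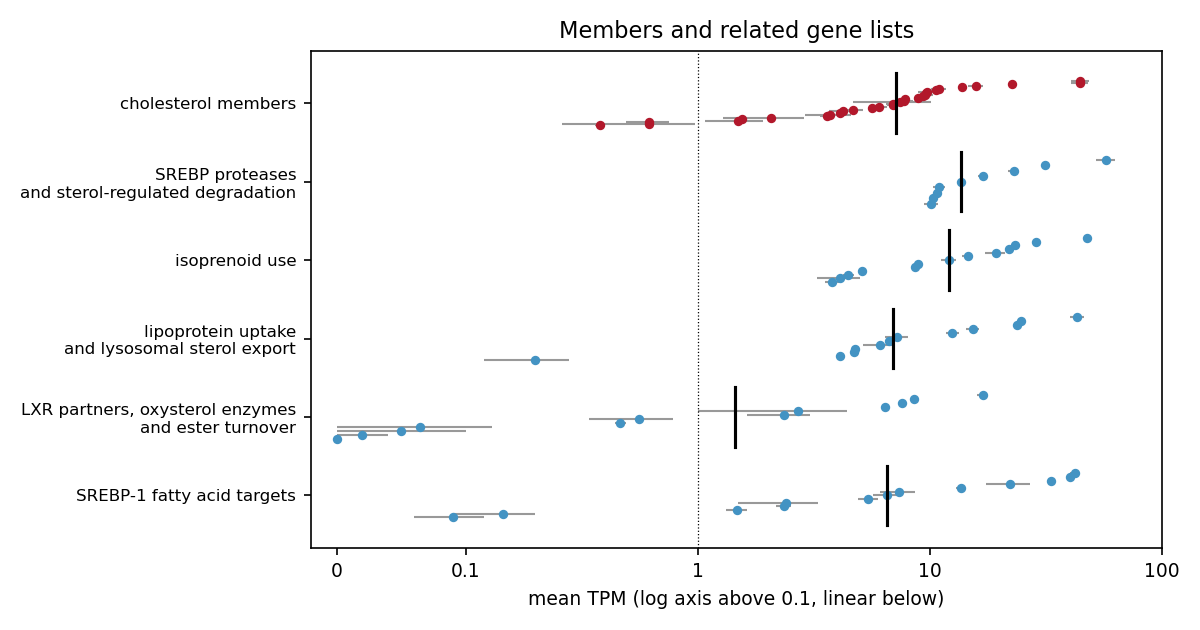
Mean TPM of each member (red) and of each gene in the 5 related lists (blue), on an axis that is logarithmic above 0.1 TPM and linear below; grey lines join the values of both libraries, black bars mark the median of each list, and the dotted line marks 1 TPM. The median is 7.19 TPM for the members, 13.6 for SREBP release and degradation, and 1.45 for LXR partners and oxysterol enzymes.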

How the data were processed

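Per the deposited file lists, the genome build was mm10 and the annotation GENCODE M4. The aligner, the quantifier's version and the use of strand: not given in the sources used here. In the gene and transcript tables, expected counts are raw read estimates made by the authors, with no normalization, per the file headers. The authors' TPM values share a fixed total among all rows, and the authors' FPKM values are per kilobase and library size. The deposited percent values give each transcript's part of its gene, and the deposited score columns hold bounds of a credibility interval around the posterior mean, which the TPM can lie outside.

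Symbols, positions and transcript types came from GENCODE M21 (42462 of 43346 Ensembl rows matched, and all 147 transcripts of the members), and promoter windows from RefSeq GRCm38.p6. Positions count back from -1, the base before the start. Expected counts were rounded to whole numbers and normalized by TMM, filtered with filterByExpr and given a prior count of 2 in edgeR 4.0.16 (R 4.3.3), then compared by the binomial test, which was tested on simulated data. DESeq2 1.42.0 gave alternative size factors. With 2 libraries p-values measure counting error only, as do limits from 3 reads, and PCR copies are not independent. The value that edgeR names the biological coefficient of variation was 0.209 between the libraries. It also holds variation from library preparation, and whether the libraries stem from different animals is not stated.

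The members and lists were chosen with earlier results of these data known. All members are named, with the 2 highest and 2 lowest genes of each related list by mean TPM and any called between the libraries, and transcripts that lead members with several transcripts at 10% or more in both libraries.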

Additional observations from a re-analysis of the deposited data

How the results depend on the processing

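The count of members at 1 TPM or more in both libraries was 27 also at 0.5 TPM, with posterior means and on protein-coding transcripts alone, 18 at 5 TPM and 28 with TPM rescaled without spike-in, numeric, small RNA and mitochondrial rows and Gm42418. It was 27 in each library alone, where the median ranged from 6.79 to 7.61 TPM. The median moved to 15.8 with rescaled TPM, to 5.43 in FPKM and to 5.59 on protein-coding transcripts, an alternative chosen after seeing the data. Scaling by total counts called 2 members (Lss and Mvk), a log2 threshold of 0.5 called 5, and DESeq2 size factors, no filter and counts divided by 4 called 1. The median log2 ratio (-0.0005) was 0.020 with total counts and 0.042 with log2(TPM + 1), and the log2 ratio of Idi1 (-0.0077) was 0.012 with total counts; the cause was not tested. With 1 mismatch, 11 members held the SRE letters. The share of Mvk-201 was 49.1% by posterior mean. For Lss-204 the mean share over both libraries was 52.0% by TPM and 24.5% by posterior mean. With thresholds added after seeing the data, 4 megakaryocyte markers reached 0.5 TPM and 5 reached 1 rescaled TPM in both libraries. No paired analysis was possible because there is 1 group, and leaving out a library leaves no comparison of libraries. Nr1h3 rests on the fewest reads of the members (37 and 42), and its leading transcript differed between the libraries.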

Other observations

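Sterol C14 reductase transcripts of Tm7sf2 were divided differently in the libraries at a similar gene level. Tm7sf2-201 was listed at 0 TPM in replicate 1 and 2.14 TPM in replicate 2, and Tm7sf2-203 at 1.33 and 0 TPM, both protein-coding. Fasn, the fatty acid synthase gene, resembled Insig2 in that TPM and reads differed: it had 17.42 TPM in replicate 1 and 27.11 in replicate 2, whereas its normalized counts were 6533 and 7651 (log2 ratio -0.23). For Dhcr7 the coding Dhcr7-202 held 94.29% in replicate 1 and 74.93% in replicate 2, with a retained-intron transcript at 0% and 10.66%.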
